A study of Mus musculus with 23 samples.

Results

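Whole lungs of neutrophil-depleted mice were compared with control whole lungs by bulk RNA-Seq, 3 libraries against 3, which is 6 of the 23 libraries of the series. The depleted mice had received an antibody against Ly6G, a surface protein of mouse neutrophils, by i.p. injection, and the study's scheme gives the controls an isotype antibody on the same schedule. The study's methods give an injection the day before analysis, alone or after an earlier one. They do not say which was used for these lungs. The deposited labels name the groups only as wt and pmn deletion, PMN being a polymorphonuclear neutrophil. Both groups were otherwise WT. The study's methods name C57BL/6J mice and a young adult age range for its mice in general, without an age or sex for each library. The study describes a related depletion experiment as done at an early age, so the age of these mice is uncertain. All 6 libraries carried the Y-linked *Ddx3y* (10.5 to 15.2 FPKM) with *Xist* at or below 0.0319 FPKM. The labels do not say whether each library is 1 mouse, so the p values given here measure the spread between libraries, which may in part be technical. The study used these lungs to ask what the loss of neutrophils does to gene expression in the organ. Values are fragments per kilobase of gene, scaled by the mapped fragments of the library (FPKM). The table lists 55335 genes, of which 13990 reached 1 FPKM in 3 or more of the 6 libraries and were compared.

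Neutrophils are short-lived phagocytes that leave the bone marrow, circulate and are held up in large numbers in the narrow capillaries of the lung. They carry abundant transcripts of the calcium-binding proteins S100A8 and S100A9, of the G-CSF receptor that sustains them and of the chemokine receptor CXCR2 that brings them out of the marrow. An antibody against Ly6G removes them from blood, although on cells that remain the antibody can mask Ly6G from later staining.

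The libraries had the transcripts of whole lung. *Sftpc*, the surfactant protein of alveolar type 2 cells, stood at 14210 to 16810 FPKM, *Ager* of alveolar type 1 cells at 717 to 884 and *Pecam1* of endothelium at 87.6 to 117. FPKM summed to 345075.1 to 391908.1 per library. The study's methods give an approximate read number per sample, but none for each library. The airway secretory gene *Scgb1a1* took 13.4% of all FPKM in control 1 and 17.5% to 20.1% in the other 5 libraries. Control libraries had 13931 to 14045 genes at 1 FPKM or more, and depleted libraries 13564 to 13888. On PCA of log2(FPKM + 1), PC1 held 32.0% of the variance and separated the groups, from -17.5 to -7.37 in control and from 6.09 to 19.7 in depleted libraries. Distances between libraries of different groups, however, reached from 34.91 to 44.18 log2 units and overlapped those within the control group (34.3 to 38.06) and within the depleted group (34.54 to 36.65).

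A single gene differed by the test used here, which took the deposited FPKM. The study's own analysis used DESeq2. It reports changes in many genes of these lungs, in pathways that include the regulation of endothelial cells. *Aqp5*, the water channel of the apical membrane of alveolar type 1 cells, stood at 71.5, 84.7 and 73.4 FPKM in control libraries 1 to 3 and 23.2, 26.9 and 28.6 in depleted libraries 1 to 3. All 3 depleted libraries lay far below all control libraries, at 34.3% of the control mean (76.5 ± 7.15 FPKM in control and 26.2 ± 2.77 in depleted lung, SD, n = 3 each). The log2 fold change was -1.51 with an SE of 0.10 and an adjusted p of 0.0211 (limma-trend with Benjamini-Hochberg adjustment over all genes; a gene was called when this p was under 0.05 and its log2 fold change exceeded 0.5 in size). This was 1 of 13990 genes, or 0.00715%. The call was lost without control library 3, without depleted library 2 or without depleted library 3 (adjusted p 0.0578, 0.0595 and 0.0907) and with no filter on low genes (0.129), while the log2 fold change stayed between -1.57 and -1.43. Sorted lung neutrophils, measured elsewhere in the series, had 0.0125 FPKM of *Aqp5*.

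*Aqp5* lies on chromosome 15 of GRCm38 (99590782 to 99594829, plus strand). Its promoter, as RefSeq gives it on GRCm38.p6 from 250 bases before to 50 after the start (chr15:99590778-99591077, plus strand), is printed because it belongs to the only gene called. Capitals mark the E-box CACGTG, 87 bases before this RefSeq start, the letters to which the CLOCK and BMAL1 dimer and other basic helix-loop-helix factors bind. The gene start given above, 99590782, is a different one near the first base of the printed stretch. The E-box lies after that start, within the gene as given. E-boxes stood in 7.15% of the 32851 mouse promoters of the same length (2349), both strands searched. The match is a description of the letters only.
Aqp5: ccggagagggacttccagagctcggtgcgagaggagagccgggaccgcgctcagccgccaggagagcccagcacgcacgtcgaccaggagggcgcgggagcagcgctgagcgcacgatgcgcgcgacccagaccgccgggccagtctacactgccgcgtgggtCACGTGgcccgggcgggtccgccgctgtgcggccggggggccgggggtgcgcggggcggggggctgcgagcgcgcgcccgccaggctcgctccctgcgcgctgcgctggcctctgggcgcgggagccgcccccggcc

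Beyond *Aqp5*, 27 genes in all had an adjusted p below 0.1, 17 lower and 10 higher in depleted lung, and none of the others passed the threshold. The 8 with the smallest adjusted p are given by their values, chosen after the values were seen. *Snrk*, a kinase of the AMPK family, had 25.6, 22.4 and 20.6 FPKM in control and 8.47, 10.2 and 7.93 in depleted lung, a log2 fold change of -1.27 (adjusted p = 0.0538). *Sema7a*, a membrane-anchored semaphorin, had 19.5, 15.8 and 16.9 FPKM in control and 36.2, 35.7 and 41.4 in depleted lung, a log2 fold change of 1.08 (adjusted p = 0.0538). In both genes the groups stood apart by more than the range within either group. *Evi2* was at 3.72, 6.15 and 3.65 FPKM in control and 0.467, 0.5304 and 0.274 in depleted lung and *Nfam1*, an activating receptor of immune cells, at 9.29, 8.39 and 8.62 FPKM in control and 3.81, 4.34 and 3.23 in depleted lung. *Fam57a* was at 3.38, 3.53 and 3.15 FPKM in control and 1.18, 1.48 and 1.24 in depleted lung and *Rab11b*, a small GTPase of recycling endosomes, at 22.6, 22.2 and 20.5 FPKM in control and 11.8, 13.7 and 11.8 in depleted lung. *Foxo3*, a forkhead transcription factor, was at 15.6, 13.1 and 16.3 FPKM in control and 27.2, 26.7 and 29.8 in depleted lung, and *Arl4d*, another small GTPase, at 22.5, 23.9 and 21.6 FPKM in control and 47.6, 38.7 and 48.7 in depleted lung. These 6 genes had adjusted p values of 0.0548, 0.0587, 0.0587, 0.061, 0.0671 and 0.0587. At an unadjusted p below 0.05, 1570 genes stood out (11.2% of those tested), 1076 lower (7.69%) and 494 higher (3.53%) in depleted lung. Depleted values were the lower ones for 61.5% of genes. Across all genes the median log2 fold change was -0.0411, and it was -0.00313 once each library's FPKM had been rescaled by its median ratio to the others.

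**Figure D1:**
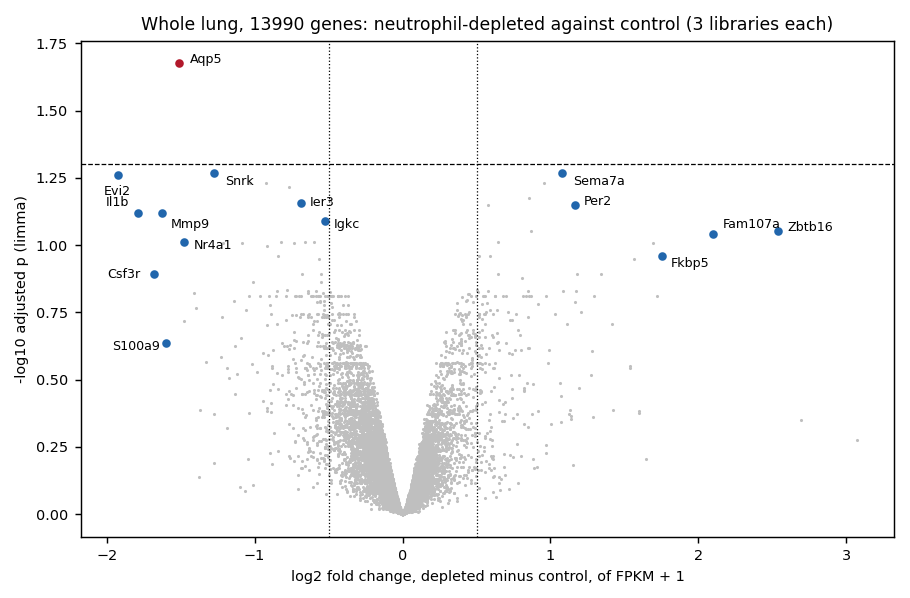
Each point is 1 of the 13990 genes, with its log2 fold change (depleted minus control, on FPKM + 1) on the x axis and the -log10 of its adjusted p from limma on the y axis; the dashed line is an adjusted p of 0.05 and the dotted lines are log2 fold changes of -0.5 and 0.5. *Aqp5* (red) is the only gene above the dashed line, and *Zbtb16*, *Fkbp5* and *Fam107a* on the right and *Il1b*, *Mmp9*, *Csf3r* and *S100a9* on the left (blue) have larger differences than *Aqp5* but lie below it.

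Because so few genes passed, gene groups are described by a simpler count, added after the data were seen: how many members had all 3 depleted libraries below, or all 3 above, all 3 control libraries. Over all genes, 11.8% lay below in this sense (1652) and 5.59% above (782); after rescaling the shares were 8.06% and 8.44%. The shares rise when a library is left out, since 2 libraries are more easily below or above than 3. Without control library 1, 2 or 3 they were 20.8%, 16.6% and 19.5% below and 11.3%, 8.46% and 9.39% above. Without depleted library 1, 2 or 3 they were 19.0%, 18.4% and 16.6% below and 8.94%, 7.87% and 9.92% above. A group's count is read against the shares from the same libraries and is not a test.

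Transcripts of mature neutrophils had lower values in the depleted lungs but were not gone. Of 42 marker genes, 27 reached the filter, 13 of these lay below in all 3 depleted libraries and none above, against 11.8% and 5.59% over all genes, and none passed the test. The median log2 fold change of the 27 was -0.45. In bulk tissue, fewer cells of a type and less RNA per cell cannot be told apart.

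*S100a9* stood at 138, 107 and 108 FPKM in control and 56.99, 52.00 and 18.2 in depleted lung, which is 35.98% of the control mean (log2 fold change -1.60, SE 0.40, adjusted p = 0.231). Its partner *S100a8* had 41.2, 34.95 and 35.1 FPKM in control and 20.1, 14.3 and 6.78 in depleted lung, or 37.1% (log2 fold change -1.48, adjusted p = 0.192). The lowest control library of each lay well above the highest depleted one, and depleted library 3 was the lowest of the 6 in both. *Csf3r*, the G-CSF receptor, stood at 12.7, 11.8 and 11.4 FPKM in control and 5.27, 2.73 and 1.83 in depleted lung (log2 fold change -1.68, adjusted p = 0.129). *Cxcr2* stood at 5.97, 3.87 and 3.71 FPKM in control and 2.31, 1.87 and 0.736 in depleted lung (log2 fold change -1.09, adjusted p = 0.223). Both receptors kept more in depleted library 1 than in libraries 2 and 3. *Mmp9*, a gelatinase stored in neutrophil granules, stood at 11.2, 7.71 and 7.06 FPKM in control and 2.87, 1.76 and 1.72 in depleted lung, with the smallest adjusted p of the list (0.0762, log2 fold change -1.63). *Retnlg*, a resistin-like peptide of neutrophils, stood at 53.7, 36.7 and 39.8 FPKM in control and 30.2, 15.4 and 9.38 in depleted lung (log2 fold change -1.33). *G0s2*, an inhibitor of the lipase ATGL, had 44.6, 40.7 and 34.9 FPKM in control and 25.9, 19.5 and 28.2 in depleted lung (log2 fold change -0.70). In each of these 3 genes the depleted range ended below the control range.

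Some less abundant neutrophil genes also lay below. *Asprv1*, a retroviral-like aspartic protease, had 2.01, 1.73 and 1.33 FPKM in control and 0.364, 0.0905 and 0.3402 in depleted lung, and *Slfn4*, a schlafen of myeloid cells, 2.52, 2.04 and 2.095 FPKM in control and 1.53, 0.455 and 0.267 in depleted lung. *Stfa2l1*, *Mmp8*, *Trem1* and *Pglyrp1* also lay below in all 3 depleted libraries, with log2 fold changes of -0.65, -0.40, -0.38 and -0.37. *Clec4d*, *Cd177*, *Il1f9* and *Ifitm6* overlapped, with log2 fold changes of -0.62, -0.30, -0.45 and -1.17. *Ly6g* itself, the target of the antibody, was at or below 0.577 FPKM in all 6 libraries and was not tested. Its transcript therefore gave no measure of the depletion. The study measured the depletion by flow cytometry instead. It reports an efficient loss of neutrophils from blood and lung, with monocytes unaffected. The granule protein genes *Ngp* and *Camp* were near the filter and under it.

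Further genes of the list overlapped too. *Lcn2*, an iron-sequestering protein that airway epithelium also makes, had 30.1, 37.9 and 48.6 FPKM in control and 48.4, 60.4 and 45.04 in depleted lung (log2 fold change 0.41). *Ltf*, lactoferrin, had 18.6, 33.8 and 37.5 FPKM in control and 24.5, 50.2 and 16.2 in depleted lung (log2 fold change -0.07). The formyl peptide receptor *Fpr1* had 13.7, 18.3 and 21.7 FPKM in control and 20.1, 21.4 and 13.96 in depleted lung (log2 fold change 0.04). *Lrg1*, a secreted glycoprotein that endothelium makes as well, had 45.3, 50.2 and 64.4 FPKM in control and 63.6, 48.8 and 46.96 in depleted lung (log2 fold change -0.00). These 4 overlapped between the groups, and the mean of *Lcn2* was the higher one in depleted lung.

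Leaving out depleted library 1, whose list median was the nearest to control, moved the count of markers below from 13 to 19 of 27, where 19.0% of all genes lay below. Without depleted library 3 the count was 13, where 16.6% of all genes lay below. The per-library medians of the list, relative to the control mean, were -0.37, -0.56 and -0.67 in depleted libraries 1, 2 and 3 and 0.0240, -0.0163 and 0.00486 in control libraries 1, 2 and 3.

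**Figure D2:**
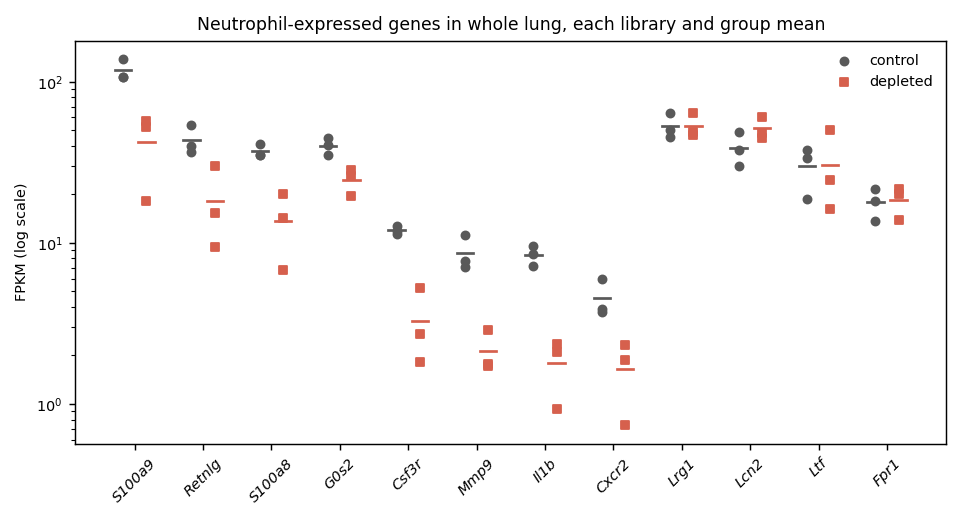
FPKM (y axis, log scale) of 12 genes that neutrophils express (x axis) in each control (grey circles) and depleted (red squares) whole-lung library, with lines at the group means. For the 8 genes on the left the depleted libraries lie below all control libraries, whereas for *Lrg1*, *Lcn2*, *Ltf* and *Fpr1* the groups overlap.

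Genes were also ranked by how abundant they are in neutrophils themselves. For this the mean FPKM of 3 libraries of sorted WT lung neutrophils of the same series, tabulated separately, was matched by symbol to 12137 of the whole-lung genes (86.8%). The share of genes that lay below in all depleted libraries was 11.1% among 3334 genes under 0.1 FPKM in sorted neutrophils, 10.3%, 11.6% and 12.8% in the next 3 bins, 21.9% among 512 genes from 100 to 1000 FPKM and 28.0% among 50 genes at 1000 or more (14 genes), against 11.8% of all genes. The share above was 4.10% and 2.00% in the top bins, against 5.59%. The median log2 fold change was -0.04, -0.05, -0.03, -0.04, -0.09 and -0.13 from the lowest to the highest bin. The bins differed in whole-lung level too, with a median control FPKM of 4.07 in the lowest bin and 22.0 and 37.6 in the 2 top bins. The part of that level in the shares was not tested. Ranked by level instead, the 1214 genes highest in sorted neutrophils had 18.6% below and a median of -0.0734. Among 75 genes at 100 FPKM or more in sorted lung neutrophils but under 5 FPKM in control whole lung, 26.7% lay below (20) and 2.67% above (2), with a median of -0.22.

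**Figure D3:**
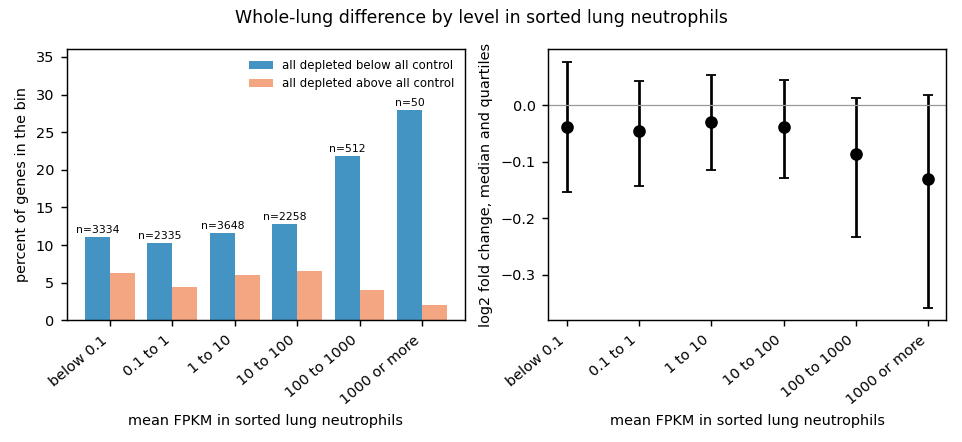
Left, percent of whole-lung genes with all depleted libraries below (blue) or above (orange) all control libraries, by mean FPKM in sorted WT lung neutrophils (x axis, n genes above the bars); right, median and quartiles of the whole-lung log2 fold change in the same bins. The blue bars stay between 10.3% and 12.8% up to 100 FPKM and are 21.9% and 28.0% in the 2 top bins.

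Most of the 50 genes at 1000 FPKM or more in sorted neutrophils did not separate the groups. Named after their values were seen, ferritin heavy chain *Fth1*, at 12880 FPKM in sorted neutrophils, averaged 327 FPKM in control and 329 in depleted lung, and *Lyz2*, the lysozyme of phagocytes and type 2 cells, averaged 5606 and 5669. *Tyrobp*, an adaptor of myeloid receptors, averaged 136 and 95.9 and *Cd52* averaged 57.3 and 36.4 (log2 fold changes -0.51 and -0.67).

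The size of the whole-lung difference varied greatly relative to the level in sorted cells. The 2 tables were normalized separately, so these ratios are only a description. *Retnlg* was 25.1 FPKM lower in depleted lung, 1.23% of its 2047 FPKM in sorted lung neutrophils, and *Csf3r* was 8.69 FPKM lower, 0.578% of 1503 FPKM. For *S100a9* the difference was 75.4 FPKM, or 0.344%, and for *Il1b* 6.63 FPKM, or 0.0934% of 7098 FPKM. *Nr4a1*, *Ier3* and *Vegfa* stood apart from these, with differences of 13.9, 37.4 and 20.2 FPKM that were 3.09%, 6.80% and 13.4% of the sorted level. Each of these 3 shares was larger than that of *Retnlg*, *Csf3r*, *S100a9* or *Il1b*.

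Genes that differed between sorted lung and sorted peripheral blood (PB) neutrophils of WT mice were looked up in whole lung. Of 587 DEGs higher in lung neutrophils, 511 were measured in whole lung, of which 12.9% lay below and 9.98% above. Of 1476 DEGs lower in lung neutrophils, 1379 were measured, with 14.9% below and 7.03% above. The medians were -0.02 and -0.04, next to -0.04 for all matched genes, and all 4 shares were above those of all genes (11.8% and 5.59%). The split of the DEGs depended on the scale, with 932 higher and 448 lower after rescaling.

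Inflammatory cytokines and chemokines mostly overlapped between the groups or were too low to test, and *Il1b* had the lowest log2 fold change of the list. Of 42 listed, 24 reached the filter. Among these, 5 lay below in all 3 depleted libraries and 1 above, against 11.8% and 5.59% over all genes. None passed the test, and the median was -0.12. Without depleted library 2, 8 lay below, where 18.4% of all genes did. *Il1b*, the interleukin that starts much of the acute inflammatory response, had 8.54, 9.56 and 7.18 FPKM in control and 2.095, 2.37 and 0.928 in depleted lung. Its depleted values were at 21.3% of the control mean, with no overlap (log2 fold change -1.79, SE 0.22, adjusted p = 0.0762). The chemokine *Ccl4* had 2.28, 1.64 and 2.02 FPKM in control and 1.58, 0.8400 and 0.574 in depleted lung (log2 fold change -0.60), and *Tnfsf14*, the TNF family ligand LIGHT, had 1.85, 1.599 and 2.05 FPKM in control and 1.06, 1.01 and 0.7502 in depleted lung (log2 fold change -0.55). *Csf1*, the growth factor of macrophages, had 8.37, 7.66 and 8.404 FPKM in control and 6.698, 6.33 and 5.603 in depleted lung (log2 fold change -0.34). In all 3 the highest depleted library lay below the lowest control library. *Cxcl13*, the chemokine that attracts B cells, was the one that lay above, with 1.28, 1.13 and 1.14 FPKM in control and 1.62, 2.17 and 2.68 in depleted lung (log2 fold change 0.52, adjusted p = 0.256). *Tnf*, *Ccl2* and *Cxcl3*, which the study names, were below 1 FPKM in every library and were not tested. *Tnf* had 0.961, 0.765 and 0.943 FPKM in control and 0.558, 0.503 and 0.237 in depleted lung and *Ccl2* had 0.532, 0.533 and 0.881 FPKM in control and 0.172, 0.0993 and 0.287 in depleted lung. All the depleted values of both were lower than all the control values, at levels too low for the filter.

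Immediate early genes, which cells switch on within minutes of a stimulus, had more members below than above, as did all genes. Of 32 tested, 10 lay below and 1 above, against 11.8% and 5.59% over all genes. None passed the test, and the median was -0.16. *Nr4a1*, an orphan nuclear receptor, had 17.9, 25.7 and 19.01 FPKM in control and 6.94, 8.85 and 5.00047 in depleted lung. That is 33.2% of the control mean, with all depleted libraries far below all controls (log2 fold change -1.47, SE 0.20, adjusted p = 0.0976). *Ier3*, an early response gene under NF-kB control, had 98.4, 105 and 89.4 FPKM in control and 60.6, 61.6 and 58.1 in depleted lung (log2 fold change -0.69, adjusted p = 0.0696). *Cyr61*, a matricellular protein, had 56.3, 69.8 and 52.6 FPKM in control and 23.8, 37.4 and 34.1 in depleted lung (log2 fold change -0.90, adjusted p = 0.167). *Dusp5*, a phosphatase of ERK, had 7.37, 6.33 and 6.696 FPKM in control and 4.41, 4.699 and 4.502 in depleted lung (log2 fold change -0.49, adjusted p = 0.15). The replicates of *Ier3* and *Dusp5* were close and those of *Nr4a1* and *Cyr61* spread wider, and in each of these genes the groups were separate. *Egr1* and *Atf3* had wide control ranges, at 16.1, 6.67 and 3.800 FPKM in control and 3.52, 2.63 and 3.46 in depleted lung for *Egr1* and 4.498, 8.27 and 10.2 FPKM in control and 3.98, 4.21 and 3.88 in depleted lung for *Atf3*. *Rgs2*, *Ier2*, *Junb* and *Fosb* also lay below, with log2 fold changes of -0.43, -0.38, -0.29 and -0.26. *Dusp1*, a phosphatase of MAP kinases, overlapped, with 44.9, 42.5 and 26.8 FPKM in control and 26.02, 25.5 and 44.5 in depleted lung. *Klf4*, a zinc finger factor of endothelium and epithelium, was the one that lay above (0.34). *Egr3*, named by the study, stood at 1.22, 1.81 and 0.722 FPKM in control and 0.339, 0.751 and 0.325 in depleted lung and was not tested.

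NF-kB subunits and feedback genes had a similar split. Of 17 tested, 8 lay below and 1 above, against 11.8% and 5.59% over all genes. None passed the test, and the median was -0.19. *Tnfaip2* had 13.2, 14.02 and 14.1 FPKM in control and 10.5, 6.97 and 9.09 in depleted lung (log2 fold change -0.60) and the subunit gene *Rel* had 4.51, 4.22 and 4.24 FPKM in control and 2.86, 3.61 and 2.67 in depleted lung (log2 fold change -0.40). *Nfkbib*, *Bcl3*, *Nfkbid*, *Relb* and *Tnip1* had log2 fold changes of -0.43, -0.41, -0.41, -0.37 and -0.30. *Nfkbia*, which encodes the inhibitor IkBa, lay above, with 52.7, 62.98 and 59.6 FPKM in control and 75.1, 75.9 and 85.8 in depleted lung (log2 fold change 0.43, adjusted p = 0.185). It is also induced by glucocorticoids and belongs to both lists.

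Of the B, T and NK cell lists, that of B cells had the largest share of members below. Of 19 B cell genes tested, 14 lay below and none above, against 11.8% and 5.59% over all genes, with a median of -0.63. *Ighd*, the heavy chain of IgD on naive B cells, had 30.2, 31.6 and 32.5 FPKM in control and 22.7, 18.3 and 8.67 in depleted lung (log2 fold change -0.98, adjusted p = 0.297). *Cd79a*, a signalling chain of the B cell receptor, had 35.6, 37.9 and 34.9 FPKM in control and 29.3, 24.8 and 12.9 in depleted lung (log2 fold change -0.74). Depleted library 3 was the lowest in both and library 1 the nearest to control, and the list medians of the 3 depleted libraries were -0.26, -0.53 and -1.17. Without library 3, 14 of the 19 still lay below, with 16.6% over all genes. *Igkc*, the kappa light chain constant region, was even across replicates, with 154, 148 and 156 FPKM in control and 106, 102 and 109.5 in depleted lung (log2 fold change -0.53, adjusted p = 0.0811). Of 7 immunoglobulin constant regions tested, 5 lay below (median -0.66), and of 80 variable segments 14 did (median -0.38), with none above in either. Leaving out 1 library gave from 17 (depleted library 3) to 31 (depleted library 1) variable segments below, where 16.6% and 19.0% of all genes lay below. Reads of such closely related segments may be shared between genes. None of the B cell genes passed the test, and the 5 others of the 19 overlapped.

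Among T cell genes 10 of 18 tested lay below and none above, against 11.8% and 5.59% over all genes, with a median of -0.31. *Cd8b1*, a chain of the CD8 coreceptor, had 4.903, 5.601 and 5.26 FPKM in control and 3.45, 3.04 and 2.26 in depleted lung (log2 fold change -0.69, adjusted p = 0.155). *Cd3e* had 2.36, 2.04 and 1.99 FPKM in control and 1.86, 1.398 and 1.300 in depleted lung (log2 fold change -0.32). *Cd4* and *Trac* overlapped, with log2 fold changes of -0.19 and -0.16, and after rescaling 7 of the 18 lay below, next to 8.06% of all genes. None of 11 NK cell genes lay below or above, and the lowest log2 fold change was -0.66 (*Gzma*, a granzyme). Their depleted libraries were uneven, with list medians of 0.17, -0.09 and -0.62. Without depleted library 1 the count below was 5 of 11 (19.0% of all genes), and without control library 2 it was 3 (16.6%).

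Monocyte and macrophage lists had few members apart with all 6 libraries, where 11.8% of all genes lay below and 5.59% above. In the list of classical monocytes 2 of 11 lay below, *F13a1* (log2 fold change -0.54) and *Ly6c2* (-0.30), and *Ly6c1*, which lung capillary endothelium also makes, lay above with 55.7, 47.9 and 52.8 FPKM in control and 67.6, 73.1 and 81.7 in depleted lung (0.50, adjusted p = 0.155). *Ccr2* overlapped, at 8.92, 5.96 and 4.48 FPKM in control and 5.88, 4.77 and 2.23 in depleted lung. Of 12 genes of nonclassical monocytes 3 lay below and none above, with a median of -0.24. Alveolar macrophage genes had a median of -0.03, with none of 16 below and 1 above (*Atp6v0d2*, a subunit of the vacuolar proton pump, 0.30). Among genes of interstitial macrophages, *Apoe* had 136, 228 and 221 FPKM in control and 117, 117 and 93.6 in depleted lung (-0.80, adjusted p = 0.236) and *Lyve1*, a hyaluronan receptor of macrophages and lymphatic endothelium, 82.96, 89.4 and 80.2 FPKM in control and 119, 118 and 162 in depleted lung (0.64, adjusted p = 0.175). Genes for the uptake of dying cells were even (median -0.05), with *Mertk*, a receptor for apoptotic cells, above at 12.1, 10.8 and 11.2 FPKM in control and 14.9, 13.8 and 15.8 in depleted lung (0.35) and the GTPase *Rac2* of leukocytes below (-0.47). Dendritic cell genes had 1 of 11 below (*Mgl2*, -0.23), and MHC class II genes 2 of 11 (*H2-Eb2* and *H2-DMb2*, -0.58 and -0.40). Interferon-stimulated genes had 5 of 34 below, near the 11.8% of all genes, none above and a median of -0.23. After rescaling 3 of the 34 lay below and 1 above, next to 8.06% and 8.44% of all genes. Several of these counts changed when a library was left out. Without depleted library 1, 5 of 11 classical and 7 of 12 nonclassical monocyte genes, 5 of 11 MHC class II genes and 18 of 34 interferon-stimulated genes lay below, where 19.0% of all genes did. Without control library 1 the MHC class II count was also 5 (20.8% of all genes). Without control libraries 2 and 3 the interferon count was 12 and 8 (16.6% and 19.5% of all genes). The dendritic cell count was 4 of 11 without depleted library 2 (18.4% of all genes). Without depleted library 1, 4 of 12 interstitial macrophage genes lay above (8.94% of all genes). Without control library 1, 3 of 16 alveolar macrophage genes lay below, near the 20.8% of all genes. Without control library 3, 4 of 17 genes for the uptake of dying cells did, near the 19.5% of all genes.

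Endothelial genes mostly overlapped between the groups, although the count depended on single libraries. Of 37 tested, 1 lay below and 1 above, against 11.8% and 5.59% of all genes, and the median was -0.02. The endothelial cadherin *Cdh5* had 239, 178 and 167 FPKM in control and 202, 169.6 and 192 in depleted lung, the VEGF receptor *Kdr* 53.6, 41.8 and 36.2 FPKM in control and 39.9, 31.6 and 30.9 in depleted lung and *Pecam1* 117, 93.01 and 87.6 FPKM in control and 106, 97.4 and 102 in depleted lung. Control 1 was the highest of the 6 libraries in all 3 genes, and the other libraries mixed. *Aplnr*, the apelin receptor of general capillary cells, was the one that lay below, with 41.9, 24.4 and 23.1 FPKM in control and 18.8, 15.8 and 16.7 in depleted lung (log2 fold change -0.72, adjusted p = 0.287). *Slc6a2*, the noradrenaline transporter of lung capillary and venous endothelium, was the one above, with 15.9, 16.6 and 17.3 FPKM in control and 23.3, 26.4 and 30.1 in depleted lung (log2 fold change 0.64, adjusted p = 0.129). The count below was 11 of 37 without control library 3 (19.5% of all genes) and 7 of 37 without depleted library 1 (19.0%), and the count above was 7 of 37 without control library 1 (11.3%).

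Ligands and modulators of angiogenesis were split. Of 31 tested, 7 lay below and 3 above, against 11.8% and 5.59% over all genes, with a median of -0.12 and none past the test. *Vegfa*, the main growth factor of endothelium, which alveolar type 1 cells also make, had 149.9, 153 and 152 FPKM in control and 129, 129 and 136 in depleted lung. The replicates were within a few FPKM of each other and did not overlap between groups, and the depleted mean was 86.7% of the control mean (log2 fold change -0.20, SE 0.06, adjusted p = 0.295). *Adm*, the vasodilator adrenomedullin, had 7.21, 5.92 and 2.46 FPKM in control and 1.76, 0.861 and 1.97 in depleted lung (log2 fold change -1.23, adjusted p = 0.26). *Bmp4* had 27.2, 26.99 and 22.9 FPKM in control and 17.7, 18.9 and 19.99 in depleted lung (log2 fold change -0.42, adjusted p = 0.181). The platelet-derived growth factors *Pdgfa* and *Pdgfb*, the Notch ligand *Dll4* and the coreceptor *Nrp2* also lay below, with log2 fold changes of -0.35, -0.29, -0.38 and -0.19. *Vegfc*, the growth factor of lymphatic vessels, lay above with 6.700, 5.52 and 5.76 FPKM in control and 9.68, 7.15 and 8.07 in depleted lung (log2 fold change 0.41, adjusted p = 0.287). *Angptl4*, an inhibitor of lipoprotein lipase, lay above with 6.65, 6.28 and 5.17 FPKM in control and 12.4, 8.599 and 19.9993 in depleted lung (log2 fold change 0.99), and *Jag1* did so at 0.19. Without control library 3, 12 of the 31 lay below (19.5% of all genes), and without depleted library 1, 11 did (19.0%). Without control library 1, 6 lay above (11.3%). Genes of the cell cycle had a median of -0.12, with 1 of 38 below (*Mcm6*, -0.15). The proliferation marker *Mki67* had 4.29, 4.05 and 2.39 FPKM in control and 2.41, 4.32 and 2.35 in depleted lung, so that depleted library 2 was the highest of the 6. Without that library 18 of the 38 lay below, against 18.4% of all genes, and without control library 3, 8 did, near the 19.5% of all genes.

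Epithelial lists had medians near that of all genes (0.07 for type 1, -0.03 for type 2 and 0.08 for airway cells). Of 15 type 1 genes, *Aqp5* alone lay below, and *Rtkn2* and *Lmo7* lay above, with 41.1, 37.9 and 42.5 FPKM in control and 52.8, 44.2 and 47.8 in depleted lung for *Rtkn2* (0.24) and 36.4, 32.6 and 36.3 FPKM in control and 38.7, 45.9 and 48.7 in depleted lung for *Lmo7* (0.33). The other 12 type 1 genes overlapped, and *Ager*, the receptor RAGE, had a log2 fold change of -0.01. Among 20 type 2 genes, *Scd1*, the desaturase that makes monounsaturated fatty acids, had 1103, 932 and 940.3 FPKM in control and 828, 407 and 569.6 in depleted lung (-0.78, adjusted p = 0.296), and the transcription factor *Etv5* also lay below (-0.35). The surfactant gene *Sftpb* and the phosphate transporter *Slc34a2* lay above, by 0.17 and 0.10, and *Sftpc* overlapped (0.01). Without control library 1 or depleted library 1, 4 of the 20 lay below, near the 20.8% and 19.0% of all genes. Airway genes had 1 of 19 above (*Aldh1a1*, 0.27) and none below, next to 5.59% and 11.8% of all genes. Without control library 1, in which *Scgb1a1* took a smaller share of FPKM than in the others, 7 of the 19 airway genes lay below and 5 of the 15 type 1 genes above (20.8% and 11.3% of all genes).

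Genes of the matrix depended on the scale. Of 35 fibroblast and smooth muscle genes, 6 lay below and none above, next to 11.8% and 5.59% of all genes, with a median of -0.12. After rescaling 1 of the 35 lay below, next to 8.06%. Without control library 1, depleted library 2 or depleted library 3 the count was 11 (20.8%, 18.4% and 16.6% of all genes). *Col3a1*, fibrillar collagen, had 116, 117 and 93.7 FPKM in control and 61.6, 81.8 and 86.1 in depleted lung (-0.51, adjusted p = 0.277), and *Col1a1* had 71.2, 81.8 and 65.9 FPKM in control and 46.8, 60.3 and 64.2 in depleted lung (-0.36). Depleted library 1 was the lowest and library 3 the nearest to control in both collagens. *Eln*, elastin, overlapped with 93.5, 69.3 and 44.95 FPKM in control and 23.6, 36.02 and 51.4 in depleted lung (-0.89). Of 24 collagens 6 lay below, 3 after rescaling, and none above. *Serpinh1*, the chaperone of collagen folding, had 125, 152 and 127 FPKM in control and 68.6, 117 and 75.02 in depleted lung (-0.66, adjusted p = 0.287).

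**Figure D4:**
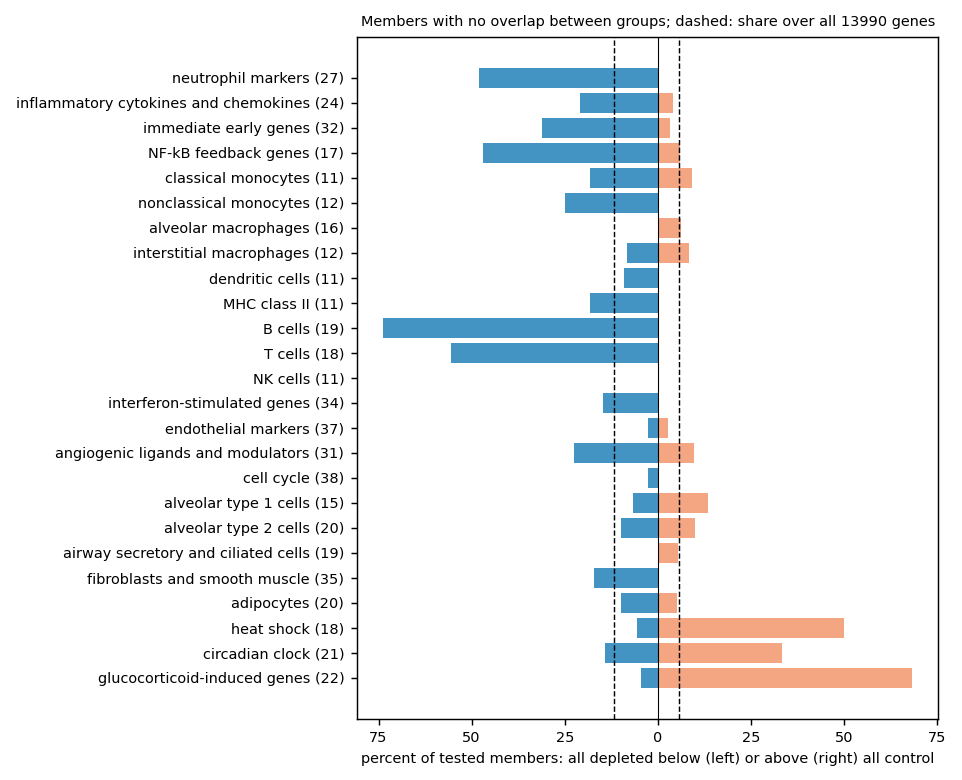
Percent of the tested members (number in parentheses) of 25 gene lists with all 3 depleted libraries below (blue, to the left) or above (orange, to the right) all 3 control libraries; dashed lines mark the shares over all 13990 genes, 11.8% below and 5.59% above. B cell (14 of 19), T cell (10 of 18) and neutrophil (13 of 27) genes reach farthest to the left and glucocorticoid-induced (15 of 22) and heat shock genes (9 of 18) farthest to the right.

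Glucocorticoid-induced genes were the group with the most members higher in depleted lung. Glucocorticoids are adrenal steroids that bind a nuclear receptor and switch on a known set of genes in most tissues. Of 22 tested, 15 lay above, 1 below (*Gadd45a*, -0.30) and none passed the test, against 5.59% above over all genes, and the median was 0.80. The counts were the same after rescaling. *Zbtb16*, a zinc finger repressor, had 2.800, 1.99 and 5.52 FPKM in control and 15.8, 29.3 and 27.6 in depleted lung (log2 fold change 2.54, SE 0.33, adjusted p = 0.0887). *Fkbp5*, a cochaperone of the receptor itself, had 2.13, 1.89 and 2.47 FPKM in control and 5.91, 11.02 and 13.5 in depleted lung (log2 fold change 1.75, adjusted p = 0.11). *Tsc22d3*, which encodes the leucine zipper GILZ, had 23.4, 28.5 and 46.1 FPKM in control and 63.6, 69.3 and 90.3 in depleted lung (log2 fold change 1.20, adjusted p = 0.178). Control 3 was the highest control library in *Zbtb16*, *Fkbp5* and *Tsc22d3*, and depleted library 1 the lowest depleted one. *Pdk4*, a kinase that turns down pyruvate dehydrogenase, had 2.297, 3.17 and 3.09 FPKM in control and 5.36, 10.7 and 10.2 in depleted lung (log2 fold change 1.29, adjusted p = 0.155), and *Ddit4*, an inhibitor of mTORC1, 20.04, 24.5 and 25.002 FPKM in control and 41.2, 33.98 and 50.1 in depleted lung (log2 fold change 0.81, adjusted p = 0.155). *Klf9* had 28.3, 8.58 and 33.8 FPKM in control and 55.5, 58.03 and 70.6 in depleted lung (1.54), with control 2 far under the other controls. The cyclin-dependent kinase inhibitor *Cdkn1a*, the metallothionein *Mt2*, the EGFR inhibitor *Errfi1* and the transporter *Slc10a6* had log2 fold changes of 0.80, 0.79, 0.84 and 0.92. *Sgk1*, a kinase that regulates sodium channels, and *Dusp1* are listed too but overlapped, with log2 fold changes of 0.05 and -0.26. Genes outside the list that had similar differences were *Fam107a* (1.798, 2.97 and 4.46 FPKM in control and 12.4, 14.8 and 21.6 in depleted lung), *Rgcc* (41.2, 52.7 and 68.9 FPKM in control and 130.2, 179 and 225 in depleted lung) and *Klf15* (7.39, 7.62 and 13.8 FPKM in control and 27.5, 25.3 and 36.1 in depleted lung). They were named after the values were seen, and their log2 fold changes were 2.10, 1.69 and 1.57 (adjusted p = 0.0909, 0.0984 and 0.113).

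Clock genes had members on both sides of the control range. The clock of each cell runs on the activators BMAL1 (*Arntl*), CLOCK and NPAS2, which drive the period, cryptochrome and REV-ERB genes that in turn repress them. Of 21 tested, 7 lay above and 3 below, against 5.59% and 11.8% over all genes, with none past the test. *Per1* also belongs to the glucocorticoid-induced list and is counted in both. Without control library 3 the clock counts were 11 above and 6 below (9.39% and 19.5% of all genes). Without depleted library 1 they were 11 and 4 (8.94% and 19.0%). *Per1* had 5.02, 7.92 and 15.1 FPKM in control and 22.7, 23.8 and 26.7 in depleted lung (log2 fold change 1.41, adjusted p = 0.196) and *Per2* 3.297, 3.77 and 4.89 FPKM in control and 8.88, 11.1 and 10.4 in depleted lung (log2 fold change 1.17, adjusted p = 0.0711). *Nr1d2*, REV-ERB beta, had 5.72, 6.74 and 13.6 FPKM in control and 13.9, 25.9 and 26.2 in depleted lung (log2 fold change 1.28). In *Nr1d1*, REV-ERB alpha, which had 7.46, 7.24 and 26.1 FPKM in control and 25.5, 37.9 and 43.8 in depleted lung (log2 fold change 1.54), control 3 was higher than depleted library 1, so that the groups overlapped. *Dbp*, an output of the clock, had 3.04, 3.55 and 8.18 FPKM in control and 6.89, 17.99 and 12.4 in depleted lung, also with control 3 above depleted library 1. *Per3* and *Cry2* lay above, by 0.65 and 0.54. The other cryptochrome gene, *Cry1*, overlapped and had the lower mean in depleted lung (-0.24). On the activator side, *Npas2* lay below with 6.04, 4.88 and 3.86 FPKM in control and 2.72, 1.21 and 1.71 in depleted lung (log2 fold change -1.06, adjusted p = 0.175). *Arntl* had 5.82, 5.25 and 3.41 FPKM in control and 3.900, 1.94 and 2.19 in depleted lung (-0.68) and *Clock* had a log2 fold change of -0.32. The groups overlapped in both *Arntl* and *Clock*. *Nfil3*, a repressor that opposes DBP, lay below, with a log2 fold change of -0.48. The period and REV-ERB genes and *Dbp* thus had the higher means in depleted lung and the 3 activators the lower ones, and control 3 was the control nearest to the depleted libraries in *Per1*, *Nr1d1*, *Nr1d2*, *Dbp* and *Arntl*. The study's methods have most animal experiments begin in the morning, and the hour at which each of these lungs was taken is not given in the sources used here.

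Promoters of *Per1* and *Per3* are printed because both genes lay above and hold the letters of clock elements. The *Per1* promoter (chr11:69098699-69098998, plus strand, RefSeq on GRCm38.p6) has 1 E-box CACGTG, in capitals, 166 bases before the start. The *Per3* promoter (chr4:151044616-151044915, minus strand) has 2 D-boxes, written here as TTATGTAA or TTACGTAA, in capitals, 205 and 158 bases before the start. DBP and NFIL3 bind such D-boxes.
Per1: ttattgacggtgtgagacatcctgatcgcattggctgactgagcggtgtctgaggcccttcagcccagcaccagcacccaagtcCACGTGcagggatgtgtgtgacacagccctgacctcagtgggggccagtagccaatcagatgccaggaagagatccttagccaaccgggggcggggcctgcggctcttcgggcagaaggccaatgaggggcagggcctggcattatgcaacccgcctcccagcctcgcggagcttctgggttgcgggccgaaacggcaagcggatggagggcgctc
Per3: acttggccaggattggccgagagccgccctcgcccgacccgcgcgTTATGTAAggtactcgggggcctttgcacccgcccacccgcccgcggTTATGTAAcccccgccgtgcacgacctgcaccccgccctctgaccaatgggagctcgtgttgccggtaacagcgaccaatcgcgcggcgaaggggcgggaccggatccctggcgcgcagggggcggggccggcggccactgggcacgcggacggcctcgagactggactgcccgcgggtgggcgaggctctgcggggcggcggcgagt

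Of 25 promoters that RefSeq gives for 17 of the 21 clock genes tested, 6 held an E-box (24.0%, against 7.15% of all promoters) and 1 held a D-box, that of *Per3*, against 1.06% of all. The clock genes with an E-box were *Bhlhe41*, *Ciart*, *Cry1*, *Per1* and *Tef*. The groups overlapped in *Bhlhe41*, *Ciart* and *Cry1*, with log2 fold changes of 0.10, 0.39 and -0.24. The full glucocorticoid response element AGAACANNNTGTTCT stood in 3 of all 32851 promoters, 1 of them that of *Sgk1*, whose FPKM overlapped between the groups. Of 29 promoters of 19 glucocorticoid-induced genes, 4 held an E-box (13.8%), those of *Dusp1*, *Fkbp5*, *Per1* and *Sgk1*. Among heat shock genes, 3 of 19 promoters held one (15.8%).

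Heat shock genes lay above in 9 of 18 cases and below in 1, *Serpinh1*, against 5.59% and 11.8% over all genes, with a median of 0.31. *Hsph1*, a nucleotide exchange factor of HSP70, had 9.09, 9.68 and 10.4 FPKM in control and 23.1, 15.6 and 16.8 in depleted lung (log2 fold change 0.84, adjusted p = 0.148). *Dnaja1*, a cochaperone, had 14.3, 18.9 and 18.9 FPKM in control and 28.00, 24.4 and 27.1 in depleted lung (log2 fold change 0.59, adjusted p = 0.175). Depleted library 1 was the highest in *Hsph1* and all depleted libraries were above all controls in both. *Chordc1*, *Hspb1*, *Hspb8*, *Hspd1* and *Hspe1* lay above by 0.45, 0.43, 0.38, 0.27 and 0.22. The stress-induced *Hspa1b* overlapped with 3.32, 14.6 and 8.15 FPKM in control and 44.3, 17.3 and 13.3 in depleted lung, and reads of it and of its near-identical neighbour *Hspa1a* cannot be told apart with certainty. The mitochondrial chaperonins *Hspe1* and *Hspd1* share 1 promoter region in opposite directions, and that of *Hspe1* (chr1:55087898-55088197, plus strand, RefSeq on GRCm38.p6) is printed because it holds the heat shock element GAANNTTCNNGAA (both strands searched). The 2 overlapping matches, in capitals, begin 89 and 84 bases before the start. Such elements stood in 5 of 19 promoters of 14 heat shock genes (26.3%) and in 0.603% of all promoters.
Hspe1: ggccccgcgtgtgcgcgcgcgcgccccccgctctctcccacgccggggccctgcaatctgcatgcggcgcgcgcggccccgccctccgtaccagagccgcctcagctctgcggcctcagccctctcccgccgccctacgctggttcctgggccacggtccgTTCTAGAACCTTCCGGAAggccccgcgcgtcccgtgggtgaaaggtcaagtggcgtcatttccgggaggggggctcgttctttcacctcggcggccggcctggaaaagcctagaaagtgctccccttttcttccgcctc

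**Figure D5:**
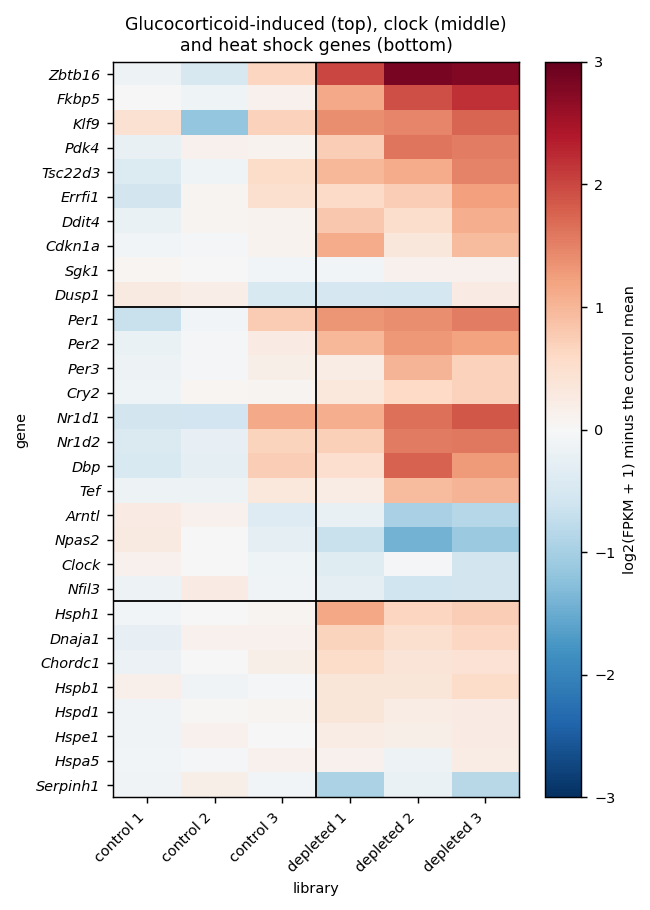
Colour gives log2(FPKM + 1) minus the control mean for each gene (rows) in each library (columns), red above and blue below the control mean, for glucocorticoid-induced, clock and heat shock genes. *Zbtb16*, *Fkbp5* and the period genes are redder in all 3 depleted libraries, *Npas2* is bluer in all 3, and control 3 is redder than the other controls in *Per1*, *Nr1d1*, *Nr1d2* and *Dbp*.

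Depleted library 3 lay farthest from control in several lists at once. The medians of depleted libraries 1, 2 and 3 were 0.58, 0.59 and 0.995 for glucocorticoid-induced genes, where control libraries stood at -0.179, 0.0543 and 0.122, and library 3 was also the farthest in neutrophil and B cell genes, as given above. For heat shock genes library 1 was the farthest (0.33, 0.22 and 0.32). The part of the glucocorticoid-induced genes in the lower lymphocyte values was not tested.

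The remaining lists had few members apart with all 6 libraries, where 11.8% of all genes lay below and 5.59% above. Erythroid globins were uneven, with *Hba-a1* from 136.8 FPKM in depleted library 2 to 337 in control 2, and reads of the paired alpha globin genes may be shared. Of 20 adipocyte genes 2 lay below and 1 above, *Lipe*, the hormone-sensitive lipase (0.26), and *Adipoq* had 7.13, 10.5 and 15.2 FPKM in control and 7.58, 11.4 and 6.100 in depleted lung. *Lep*, the adipocyte hormone leptin, which the study names, had 0.343, 0.504 and 0.964 FPKM in control and 0.0839, 0.251 and 0.129 in depleted lung and was not tested. Heart and skeletal muscle genes had 1 of 16 below (*Myh7*, -0.31), and glycolysis and hypoxia genes 2 of 21 below and 2 above, with a median of -0.01. Of 6 platelet genes 1 lay above (*Gp9*, 0.56). Of 4 eosinophil, basophil and mast cell genes *Gata2*, a transcription factor of blood progenitors and endothelium, lay above with 12.4, 10.2 and 11.1 FPKM in control and 18.1, 13.2 and 21.7 in depleted lung (0.59). *Piezo1*, the mechanosensitive channel at the centre of the study, had 15.3, 14.8 and 13.4 FPKM in control and 14.6, 15.5 and 14.3 in depleted lung and overlapped (log2 fold change 0.03). Of the other genes that the study names, *Neu2*, *Gpr17*, *S100a7a* and *Ubd* were under the filter, the highest value among them being 1.504 FPKM of *Ubd* in depleted library 2. Over the 4 most abundant tested members of each list fixed with the design (144 genes), 15.3% lay below (22) and 7.64% above (11), next to 11.8% and 5.59% of all genes. Their median was -0.07, and 26 had a log2 fold change of 0.5 or more in size. No member lay below or above among 7 plasma cell genes, 13 genes of the mitochondrial genome, 5 keratin and 5 nerve or glia genes tested, and 1 of 10 mesothelial genes lay below. Of 76 cytosolic ribosomal protein genes 2 lay below and 1 above (median -0.07). Several of these counts changed without control library 1, where 48 of the 76 ribosomal protein genes, 6 of 10 mesothelial, 6 of 20 adipocyte and 6 of 21 glycolysis and hypoxia genes lay below, against 20.8% of all genes. Without control library 3, 5 of 20 adipocyte genes lay above, against 9.39% of all genes.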

How the data were processed

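Paired-end bulk RNA-Seq of whole lung was analysed for 3 control and 3 neutrophil-depleted libraries, as named by the labels. The FPKM values were made by the authors, who per the labels trimmed reads with fastp, aligned them with HISAT2 to mm10 and counted genes with HTSeq, and they were used as deposited. Tool versions and the program that computed FPKM are not given in the sources used here. The labels name a SMARTER kit and the study's methods another library kit. No read counts were analysed, and the study's methods give depth only as an approximate read number per sample. Low FPKM are the least certain. Where spreadsheet software had turned gene symbols into dates (26) or the symbol was blank, names came from Ensembl identifiers in GENCODE M21 (GRCm38), with 3044 of 3225 blanks named.

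Genes with 1 FPKM or more in 3 or more libraries were compared on log2(FPKM + 1) with limma 3.58.1 in R 4.3.3 (empirical Bayes with trend and robust options), without a replicate block, so that a fold change of a low gene is understated. p values were adjusted after Benjamini-Hochberg over all 13990 genes. An exact two-sided permutation test of 3 libraries against 3 cannot go below p = 0.1 and was not used. The code was tested on simulated data. Sorted WT lung and PB neutrophils (3 libraries each, a separate FPKM table) were compared in the same way at a log2 fold change above 1 in size. Tables of the Piezo1 knockout experiment, which also hold the authors' own fold changes and p-values, were not used. The comparison was repeated after each of these changes: a pseudocount of 0.1, every gene kept, 5 FPKM as the minimum, FPKM rescaled, no trend, the replicate block, and each library left out. Promoters came from RefSeq (GRCm38.p6), and 250 bases before to 50 after the start were searched in Python 3.11.15.

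The members and gene lists were chosen with earlier results of these data known. The rule for named genes took called genes, genes named by the study and the 4 most abundant members of each list. Because 1 gene was called, genes were otherwise named after their values were seen, and the abundant members are given as a summary. The counts of genes whose groups do not overlap, and those at an unadjusted p, were also added after the data were seen. Some genes are not reported here.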

Additional observations from a re-analysis of the deposited data

How the results depend on the processing

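The count of genes called, 1 in the comparison as reported, was 4 with a pseudocount of 0.1 (1 higher and 3 lower), 3 among 8045 genes at 5 FPKM or more, 0 among 28886 genes with no filter and still 1 after rescaling and with no trend. Leaving out 1 library gave from 0 (without control library 3 or depleted library 3) to 12 calls (without depleted library 1, 6 higher and 6 lower). With the replicate number as a block, 5 genes were called, *Mmp9* and *Aqp5* lower and *Fam107a*, *Rgcc* and *Klf15* higher. The labels do not tie the numbers to a shared litter or day, and deviations of same-numbered libraries correlated by 0.0593, 0.0438 and -0.0266, so this fit was not used. The cause of these differences was not tested. Of 150 named genes, 140 kept their direction under every alternative run, and 13 values of named genes were newly past the threshold under one. After rescaling the log2 fold change turned positive for *Ager* (0.0386), *Cdh5* (0.00792) and *Lrg1* (0.0431). Leaving out 1 library, the ranges that cross 0 were -0.0924 to 0.058 for *Ager*, -0.139 to 0.12 for *Cdh5*, -0.124 to 0.226 for *Fpr1*, -0.454 to 0.148 for *Hba-a1*, -0.136 to 0.14 for *Lrg1*, -0.505 to 0.284 for *Ltf*, -0.0335 to 0.171 for *Pecam1*, -0.0221 to 0.0633 for *Piezo1*, -0.119 to 0.264 for *Scgb1a1* and -0.0638 to 0.0572 for *Sftpc*. DEGs between sorted lung and PB neutrophils numbered 587 higher and 1476 lower in lung as reported, and 932 higher and 448 lower after rescaling. The median of genes most abundant in sorted neutrophils was -0.13 in the highest bin and -0.0734 for the highest 1214 genes. Depth is known only as the study's approximate read number per sample. Differences among genes near 1 FPKM are limited by counting error, which was not estimated without read counts.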
